A study of Sus scrofa with 18 samples.

Results

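The 9 genes described here are steroid receptors and enzymes that make, activate or inactivate steroid hormones, out of 31908 genes in the count table of pig fetal brains. The receptors were NR3C1, NR3C2, ESR1, ESR2 and PGR, and the enzymes were HSD11B1, HSD11B2, CYP19A1 and SRD5A1. Members were taken by gene name, which found 8 of the 9. No row of the table was named SRD5A1, and its values are those of a row without a name, ENSSSCG00000017103, which a table of gene names pairs with SRD5A1.

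Whole brains of domestic pig fetuses (Landrace x Large White gilts bred by artificial insemination to 1 boar line, LR-M6) were profiled by RNA-Seq at 3 gestation days, GD45, GD60 and GD90, from 3 females and 3 males each, 18 libraries in all. No fetus was treated, and none came from the tip of a uterine horn. The labels give the litter size and the sex of the neighbouring fetus on each side. Each litter size occurred once within a day, with 1 female and 1 male, so the fetuses were taken to come from 9 litters of 1 female and 1 male each, which the labels do not state directly. A whole brain mixes many regions and cell types, and in such a sample fewer cells of a type and less RNA per cell cannot be told apart.

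Steroid receptors are transcription factors that bind hormone inside the cell and then bind DNA through a pair of zinc fingers. NR3C1, the glucocorticoid receptor, and NR3C2, the mineralocorticoid receptor, both respond to cortisol, while ESR1 and ESR2 respond to estrogens and PGR to progesterone. Enzymes set how much hormone reaches them: HSD11B1 regenerates cortisol from cortisone, HSD11B2 does the reverse, aromatase (the CYP19 enzymes) turns androgens into estrogens, and SRD5A1, a 5alpha-reductase, converts testosterone to dihydrotestosterone and progesterone towards neurosteroids such as allopregnanolone.

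The receptors fall into 2 classes by the DNA they read, and the coding sequence of their first zinc finger shows it. The 5 stretches below, each of 81 bases in 1 coding exon of RefSeq on Sscrofa11.1, were found by the spacing of the cysteine codons, and capitals mark the 3 codons of the P box, which contacts the half-site.
NR3C1: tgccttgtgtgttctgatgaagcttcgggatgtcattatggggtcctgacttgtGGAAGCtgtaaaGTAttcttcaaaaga
NR3C2: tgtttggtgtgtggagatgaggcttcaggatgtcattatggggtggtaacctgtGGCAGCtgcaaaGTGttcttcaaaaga
PGR: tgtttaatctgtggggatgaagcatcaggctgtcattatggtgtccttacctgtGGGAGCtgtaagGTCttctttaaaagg
ESR1: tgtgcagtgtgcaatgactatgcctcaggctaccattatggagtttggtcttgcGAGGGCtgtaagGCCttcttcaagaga
ESR2: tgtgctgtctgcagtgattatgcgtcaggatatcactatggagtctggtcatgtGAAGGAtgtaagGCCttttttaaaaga
They lie at chr2:144855978-144856058 on the minus strand, chr8:80496076-80496156 on the plus strand, chr9:32125176-32125256 on the minus strand, chr1:14456963-14457043 on the minus strand and chr1:193846808-193846888 on the plus strand. From NR3C1, the stretch of NR3C2 differed at 15 of 81 bases and that of PGR at 19, while ESR1 differed at 28 and ESR2 at 26. ESR1 and ESR2 differed from each other at 16 bases.

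NR3C1, the glucocorticoid receptor gene (chr2:144822937-144956095, minus strand), was higher at GD90 than on either earlier day, with no difference past the threshold between GD45 and GD60. Its level at GD45 ran from 6.06 to 15.6 CPM (reads on the gene scaled to the total of the library, median 13.7), at GD60 from 9.71 to 16.1 (median 15.4) and at GD90 from 19.5 to 30.7 (median 24.9). All 6 GD90 brains stood above every brain of the earlier days, and the GD45 and GD60 brains overlapped. With the counts of the female and male of each litter summed, 3 litters a day, edgeR's quasi-likelihood test gave a log2 fold change of 0.85 ± 0.14 (SE) from GD60 to GD90 (adjusted p = 0.000839) and of 0.16 ± 0.14 from GD45 to GD60 (adjusted p = 0.506). From GD45 to GD90 it rose by 1.02 ± 0.14 (adjusted p = 0.000126). The log2 ratio of mean CPM over that span was 1.00 in the gene table and 1.63 in the exon table, which holds 5.93% of the reads of this gene.

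The lowest NR3C1 value belonged to 1 brain, male GD45 replicate 17, from the litter labelled with size 8. This brain was also the lowest of the 18 for NR3C2 (1.58 CPM), SRD5A1 (82.3 CPM), HSD11B1 (6.99 CPM) and CYP19A1 (4.68 CPM). Its female litter mate, replicate 18, had 13.4 CPM of NR3C1, 4.93 of NR3C2, 139 of SRD5A1, 12.1 of HSD11B1 and 4.87 of CYP19A1. Both brains of this litter were labelled with lower weights (0.7135 and 0.6653) than the other 4 GD45 brains (1.55 to 1.86), in a unit that the label gives as mg and that was not relied on. Without the litter, the log2 fold changes from GD45 to GD90 were 0.88 for NR3C1, 1.07 for NR3C2, 0.62 for SRD5A1, 1.29 for HSD11B1 and 0.98 for CYP19A1, and these 5 genes were still called.

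NR3C2, the mineralocorticoid receptor gene (chr8:80290715-80669404, plus strand), rose over the whole period. It ran from 1.58 to 8.29 CPM at GD45 (median 6.52), from 5.88 to 12.7 at GD60 (median 8.8) and from 10.9 to 16.3 at GD90 (median 14.7). The GD90 brains did not overlap the GD45 brains, and the GD60 brains overlapped both. By litter, the log2 fold change was 1.34 ± 0.26 from GD45 to GD90 (edgeR, adjusted p = 0.00144), 0.62 ± 0.26 in the first period (adjusted p = 0.163) and 0.72 ± 0.26 in the second (adjusted p = 0.0483). The call of the second period was lost without the GD60 litter of 8 or 15, without any of the GD90 litters (10, 11 and 18) and, by edgeR, without TMM factors (adjusted p = 0.0777). Neither females alone (adjusted p = 0.117, edgeR) nor males alone (adjusted p = 0.124) kept it. In the exon table, 1283 of the 1551 reads of NR3C2 lay in its last exon of 2799 bases (chr8:80666606-80669404). Only 7 of its 18 listed exons overlap no other listed exon, and such overlap hides reads on the others.

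The estrogen receptor genes stayed low. ESR1 (chr1:14217036-14493363, minus strand), which codes for the main receptor of reproductive tissues, had 11 to 25 reads in every library, from 0.676 to 1.36 CPM at GD45, 0.693 to 1.51 at GD60 and 0.972 to 1.46 at GD90. Its days overlapped throughout, and its log2 difference by litter from GD45 to GD90 was 0.06 ± 0.28 (edgeR, adjusted p = 0.883). At these counts a change of the size of its SE was not detectable, and larger ones could be missed too. ESR2, with a similar SE, was not called at -0.73 ± 0.29 from GD60 to GD90 (edgeR, adjusted p = 0.069). Of the 177 reads that the exon table gives ESR1, 168 lay in its last exon of 4533 bases (chr1:14217036-14221568). Only 3 of its 24 listed exons overlap no other listed exon, and such overlap hides reads on the others.

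ESR2 (chr1:193722164-193906565, plus strand), which codes for the other nuclear estrogen receptor, had 6 to 24 reads per library. Its level was 0.569 to 1.38 CPM at GD45, 0.991 to 1.45 at GD60 and 0.34 to 0.923 at GD90. Every GD90 brain lay below every GD60 brain, but the litter difference of -0.73 ± 0.29 did not pass the threshold (edgeR, adjusted p = 0.069). Of the 272 reads that the exon table gives ESR2, 245 lay in its last exon of 2114 bases (chr1:193904452-193906565), so most of its count speaks for the 3′ end of the gene. This exon had 97, 102 and 46 reads at GD45, GD60 and GD90. The other exons with reads had, in order along the gene, 2, 1, 0, 0, 0, 0, 0 and 1 at GD45. At GD60 they had 5, 1, 0, 1, 1, 0, 0 and 0, and at GD90 0, 2, 5, 3, 0, 1, 2 and 2. The lower GD90 level thus lay in the last exon, and these few other reads did not share it. Differences between the exons were not tested.

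PGR, the progesterone receptor gene (chr9:32035684-32129221, minus strand), had no read in any of the 6 GD45 libraries. At GD60 females 3, 5 and 15 had 2, 10 and 11 reads, and males 4, 6 and 16 had 2, 0 and 7. At GD90 females 2, 7 and 9 had 8, 7 and 11 reads, and males 1, 8 and 10 had 8, 4 and 4. PGR was thus found in 5 of 6 GD60 libraries and in 6 of 6 at GD90, always under 1 CPM. A count of 0 over the whole GD45 group was taken to allow up to 3 reads. The level at GD60 (32 reads) was 10.8-fold that limit, and that at GD90 (42 reads) was 14.7-fold. The error of the GD60 and GD90 counts is not in these folds. The reads fell on all 8 exons, 22 of 68 in the first and largest one. PGR was too low to be tested over the 18 single libraries. It entered the litter test (adjusted p = 0.00937 for GD60 and 0.000801 for GD90 against GD45, edgeR) through the days on which it was present, so its call adds nothing to these counts.

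**Figure D1:**
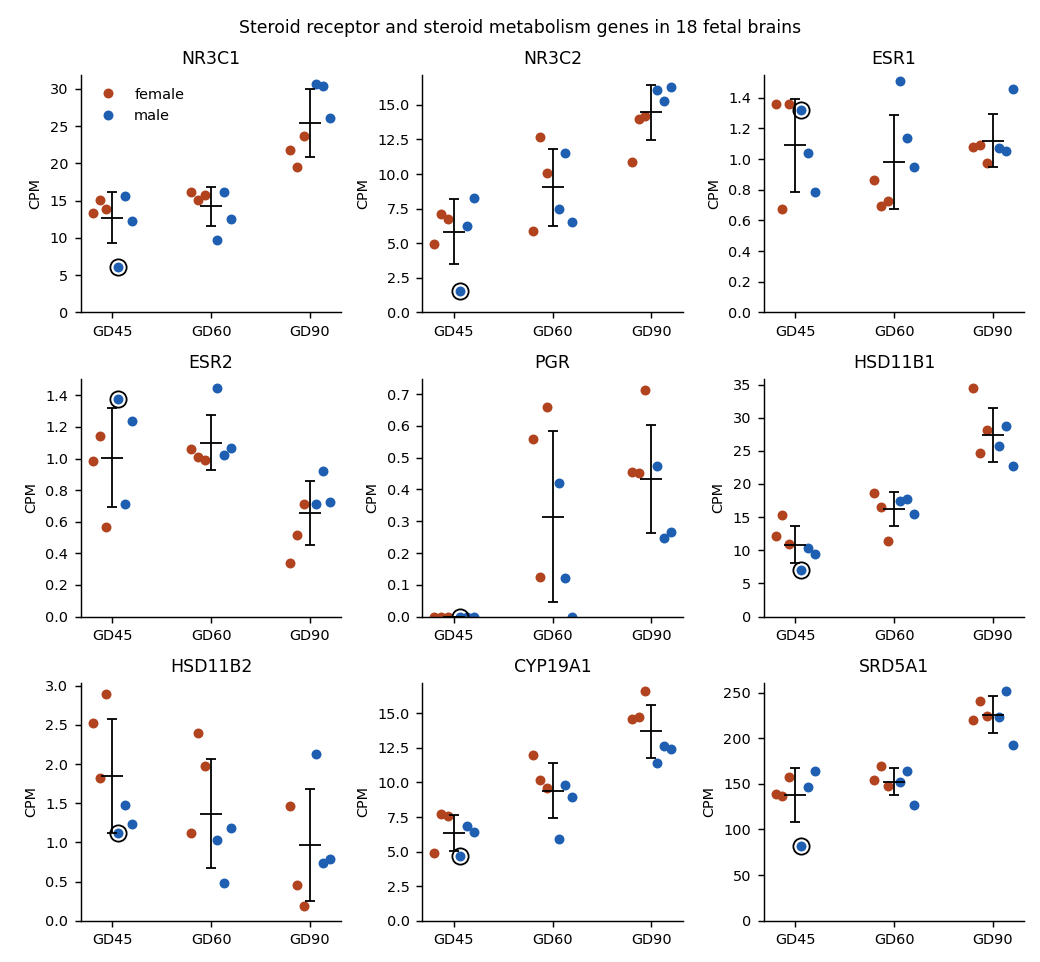
Level of each of the 9 genes in CPM (linear axes from 0) in every brain on GD45, GD60 and GD90. Red points are females and blue points males, in order of litter size, black bars give the mean and SD of 6 brains, and the black ring marks male GD45 replicate 17, the lowest of 18 for NR3C1, NR3C2, SRD5A1, HSD11B1 and CYP19A1.

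Among the enzymes, HSD11B1, which regenerates active glucocorticoid, rose in both periods. It ran from 6.99 to 15.3 CPM at GD45 (median 10.6), from 11.4 to 18.6 at GD60 (median 17.0) and from 22.7 to 34.5 at GD90 (median 26.9). No GD90 brain overlapped an earlier day. The log2 fold changes by litter were 0.58 ± 0.16 (edgeR, adjusted p = 0.0352) and 0.77 ± 0.15 (adjusted p = 0.00275), and 1.35 ± 0.16 over both periods (adjusted p = 3.55e-05). The size depends on the table: the log2 ratio of mean CPM of GD90 over GD45 was 1.33 in the gene table, 1.28 in the exon table and 0.28 in the transcript table. The call of the first period was lost without the GD45 litter of 8 or 17 or the GD60 litter of 8 or 13, and in females alone (edgeR, adjusted p = 0.44).

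The row of HSD11B1 (chr9:133231451-133278396, minus strand) holds more than 1 first exon. The exon table gave 30 reads to the exon at chr9:133257129-133257318, which can be a first exon, and 2 reads to the farthest one, chr9:133278274-133278396, with 7 on the exon after it. The next exons downstream had 238 reads (131 bases) and 280 reads (112 bases), and a shorter listed exon that overlaps the inner one hides part of its reads. At GD45, GD60 and GD90 the inner exon had 10, 9 and 11 reads, without the rise of the gene. The downstream exons had 37, 81 and 120 reads and 63, 73 and 144. The 7 reads after the farthest exon were all at GD90. Which start carried the rise was not tested. The row also overlaps C1orf74 on the other strand, and whether the counting used strand is not given in the sources used here. Because the inner start carried most of these few first-exon reads, the 250 bases before it (chr9:133257319-133257568, minus strand) are shown, with capitals at matches to TTNNGNAA on either strand, a form of the site of C/EBP proteins.
HSD11B1 inner start: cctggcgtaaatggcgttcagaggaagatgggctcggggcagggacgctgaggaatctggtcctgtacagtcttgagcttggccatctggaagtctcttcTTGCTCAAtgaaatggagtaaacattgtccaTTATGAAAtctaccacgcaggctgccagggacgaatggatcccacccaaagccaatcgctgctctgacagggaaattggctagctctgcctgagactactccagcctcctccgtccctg
The motif matched 2 times here and at least once in 31.7% of the 250-base windows before 19556 protein-coding genes of RefSeq. The steroid receptor half-site TGTTCT (10.3% of windows) and the estrogen receptor half-site GGTCA (33% of windows), searched on both strands, had no match in this window.

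HSD11B2, which inactivates cortisol and shields the mineralocorticoid receptor from it (chr6:28083955-28089672, plus strand), was scarce, with lower medians on later days that did not pass the test. It ran from 1.12 to 2.9 CPM at GD45 (17 to 51 reads), from 0.482 to 2.39 at GD60 (8 to 38 reads) and from 0.194 to 2.13 at GD90 (3 to 36 reads). All days overlapped, and the difference by litter from GD45 to GD90 was -0.92 ± 0.42 (edgeR, adjusted p = 0.0869). At GD90 the litter of 10 stood apart, with 1.47 CPM in its female and 2.13 in its male, against 0.194 to 0.794 in the other 4 brains. Without that litter the difference was -1.75 and passed the threshold (edgeR, adjusted p = 0.00118), as it did in females alone (-1.62, adjusted p = 0.0392). In males alone it was -0.10 (adjusted p = 0.88), and without the GD90 litter of 11 or of 18 it was -0.67 and -0.60 (adjusted p = 0.258 and 0.261, edgeR).

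Set against each other per length, HSD11B1 exceeded HSD11B2 in every brain. The ratio of their FPKM values (CPM divided by the gene length in kilobases) lay between 4.5 and 9.99 at GD45 (median 7.83), between 6.86 and 43.9 at GD60 (median 17.7) and between 14.3 and 172 at GD90 (median 40.1). By litter it was 5.74, 6.21 and 9.23 at GD45, 10.3, 14.4 and 20.0 at GD60, and 20.0, 53.1 and 61.5 at GD90. The 3 GD90 litters stood above the 3 GD45 litters, and the 2-sided exact permutation test over litters gave p = 0.1, the smallest that 3 against 3 litters allow. The same permutation test gave p = 0.1 for GD60 against GD45 and p = 0.2 for GD90 against GD60. The highest ratio, 172, came from GD90 female 9, which had 3 reads of HSD11B2.

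**Figure D2:**
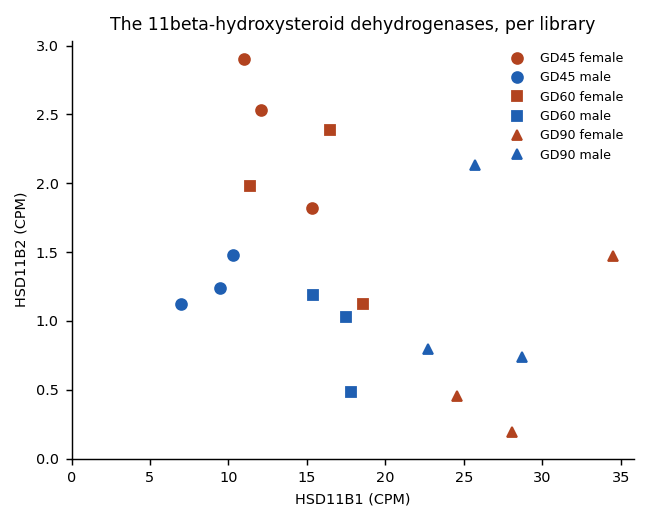
HSD11B1 (x axis) against HSD11B2 (y axis), both in CPM, 1 point per brain, with the day as shape and the sex as colour. The GD90 brains lie to the right of all others, at 22.7 CPM or more of HSD11B1, and range from 0.194 to 2.13 CPM of HSD11B2.

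The row named CYP19A1 (ENSSSCG00000030168, chr1:120367667-120695899, plus strand) holds the aromatase genes of the pig, and it rose step by step. Its level lay between 4.68 and 7.75 CPM at GD45 (median 6.63), between 5.91 and 12 at GD60 (median 9.7) and between 11.4 and 16.6 at GD90 (median 13.6). The GD90 brains did not overlap the GD45 brains. The log2 fold change by litter was 0.58 ± 0.15 in the first period (edgeR, adjusted p = 0.0335) and 0.55 ± 0.15 in the second (adjusted p = 0.0145), and 1.14 ± 0.15 over both (adjusted p = 0.00011). The call of the first period was lost without the GD45 litter of 8 or any GD60 litter (8, 13 and 15), and that of the second without the GD60 litter of 15. In edgeR it was also lost in females alone (adjusted p = 0.067) and males alone (0.347) in the first period. In the second it was lost in males alone (edgeR, adjusted p = 0.0616).

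Pigs carry several aromatase genes, and the exon reads of this row lay almost entirely in 1 of them. RefSeq places CYP19A3 (chr1:120476890-120556103), CYP19A1 (chr1:120596235-120627806) and CYP19A2 (chr1:120652172-120695899) inside the span of the row. Of 940 reads that the exon table gives to the row, 938 (99.8%) lay in the span of CYP19A3, 2 in that of CYP19A2 and 0 in that of CYP19A1, where 3 reads of 940 is the limit that a count of 0 allows. Of the exons that overlap no other listed exon, 8 of 9 had reads in CYP19A3, 0 of 6 in CYP19A1 and 2 of 8 in CYP19A2. Reads in the CYP19A3 span numbered 183 at GD45, 310 at GD60 and 445 at GD90, each over 6 libraries. As far as these exon reads show, which are 32.0% of the counts of the row, its values are those of CYP19A3 by the RefSeq names, and the level per length is understated, since the length of the row (6953 bases) adds up the exons of all copies.

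**Figure D3:**
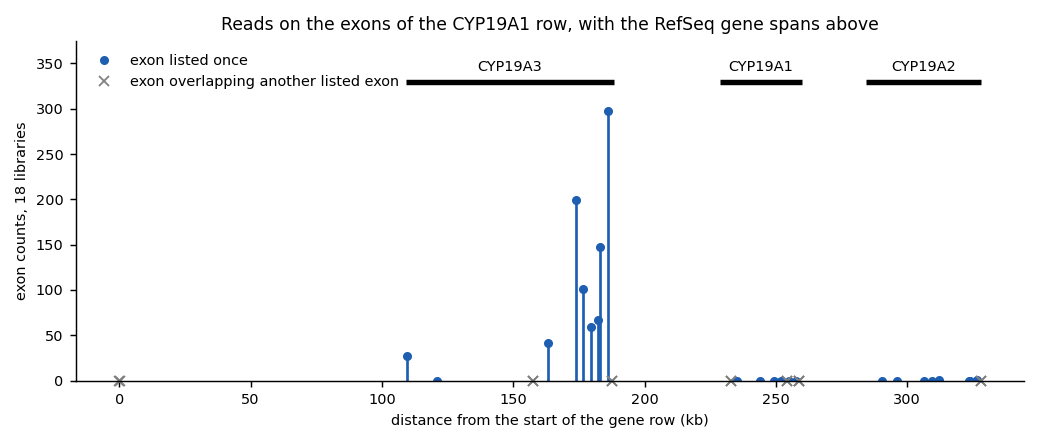
Exon counts summed over 18 libraries (y axis) at the start of each exon of the row named CYP19A1, by distance in kb from the start of the row (x axis), with the RefSeq spans of CYP19A3, CYP19A1 and CYP19A2 as black bars. Blue points are exons listed once, grey crosses are exons that overlap another listed exon and receive no reads, and 938 of 940 reads stand under CYP19A3.

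The copies differ at several bases within about the length of a read (150 bases), as 1 coding exon of 163 bases shows. It is given for the 3 genes on the plus strand of chr1 (Sscrofa11.1), at chr1:120550572-120550734, chr1:120622559-120622721 and chr1:120691731-120691893, with capitals at bases that are not shared by all 3.
CYP19A3: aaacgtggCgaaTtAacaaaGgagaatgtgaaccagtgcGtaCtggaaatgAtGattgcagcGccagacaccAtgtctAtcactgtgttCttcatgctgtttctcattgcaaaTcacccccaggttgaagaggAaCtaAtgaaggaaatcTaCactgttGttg
CYP19A1: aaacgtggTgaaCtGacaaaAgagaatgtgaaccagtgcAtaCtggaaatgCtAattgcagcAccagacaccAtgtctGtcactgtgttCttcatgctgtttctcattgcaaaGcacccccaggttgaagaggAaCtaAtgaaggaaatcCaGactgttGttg
CYP19A2: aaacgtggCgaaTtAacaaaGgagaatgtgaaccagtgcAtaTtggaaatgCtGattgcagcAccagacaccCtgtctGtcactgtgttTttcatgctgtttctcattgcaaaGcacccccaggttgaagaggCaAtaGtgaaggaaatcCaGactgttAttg
This exon had 147 reads in CYP19A3 and 0 in each of the other copies. The exon of CYP19A3 differed from that of CYP19A1 at 12 of 163 bases and from that of CYP19A2 at 14, and 19 positions differed among the 3. How the counting treated reads with several matches is not given in the sources used here.

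SRD5A1 (chr16:75310211-75336043, minus strand), the 5alpha-reductase gene, had the highest level of the 9 and rose in the second period. It ran from 82.3 to 164 CPM at GD45 (median 143), from 127 to 170 at GD60 (median 153) and from 193 to 252 at GD90 (median 224). Every GD90 brain stood above every earlier brain. By litter the log2 fold change was 0.15 ± 0.13 in the first period (edgeR, adjusted p = 0.507) and 0.59 ± 0.13 in the second (adjusted p = 0.00457). The second call was lost in males alone (0.58 ± 0.19, edgeR, adjusted p = 0.0505). The last exon (chr16:75310211-75312293, 2083 bases) held 41952 of the 47545 exon reads, and the row overlaps NSUN2.

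Per length, the order of the median FPKM at GD90 was SRD5A1 (61.0), HSD11B1 (16.5), NR3C1 (3.67), NR3C2 (2.16), HSD11B2 (0.396), ESR1 (0.163), ESR2 (0.142) and PGR (0.1). At GD45 it was SRD5A1 (38.9), HSD11B1 (6.54), NR3C1 (2.01), NR3C2 (0.958), HSD11B2 (0.855), ESR2 (0.213), ESR1 (0.18) and PGR (no read). CYP19A1 was given no place, because its length adds up several copies. The medians of NR3C2 and HSD11B2 were close at GD45 and apart at GD90, and ESR1 and ESR2 were neighbours whose ranges overlapped on both days.

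Counted over the 8 members other than PGR, which had no read at GD45, 2 were higher at GD60 than at GD45 by litter (CYP19A1 and HSD11B1), where 6.75% of the 17003 genes tested were called higher and 11.6% in either direction. From GD60 to GD90, 5 of the 8 were higher (NR3C1, NR3C2, CYP19A1, SRD5A1 and HSD11B1), against 18.7% of all genes called higher and 37.4% in either direction. From GD45 to GD90, the same 5 were higher, against 26.5% of all genes called higher and 53.3% in either direction. With so few genes, nothing is read from these shares beyond the counts. No member was called lower in any of these comparisons. The median log2 fold change of the 9 was 0.16, 0.56 and 1.02 in the order given. It did not move with PGR set to its fold over the GD45 limit. The median of all genes tested was between -0.02 and 0.00.

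**Figure D4:**
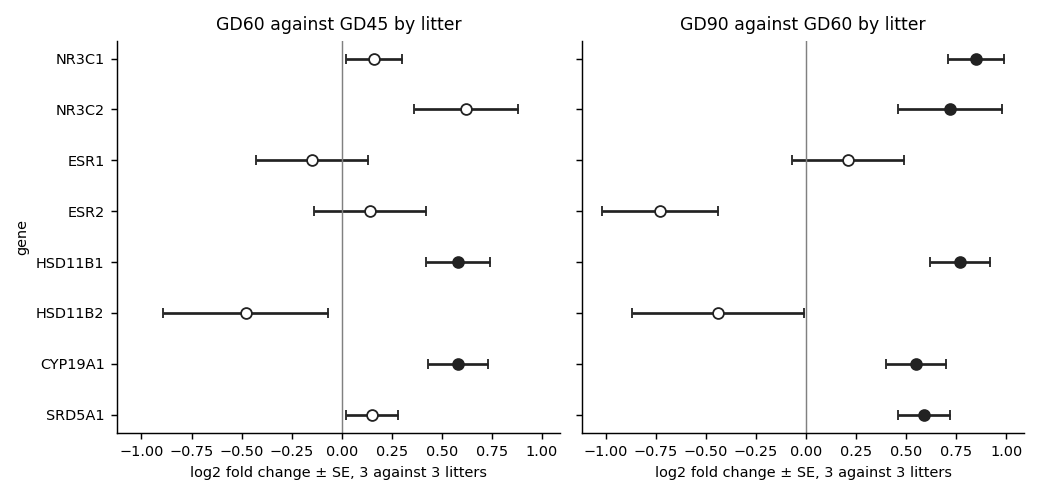
Log2 fold change with its SE for 8 genes (PGR is left out, having no read at GD45), from counts summed by litter, 3 against 3 litters, for GD60 against GD45 (left) and GD90 against GD60 (right). Filled points passed an adjusted p of 0.05 (edgeR), which were CYP19A1 and HSD11B1 on the left and NR3C1, NR3C2, HSD11B1, CYP19A1 and SRD5A1 on the right.

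Within each sex, tested over single libraries with 3 against 3 brains (8 members tested), fewer calls were made. From GD45 to GD60, no member was called in females (7.22% of genes called) and HSD11B1 alone in males (5.61% of genes), with a log2 fold change of 0.91 ± 0.20 (edgeR, adjusted p = 0.0133) against 0.30 ± 0.20 in females. The test of that difference between the sexes gave 0.60 ± 0.29 (unadjusted p = 0.0493, adjusted p = 1.0). From GD60 to GD90, CYP19A1, HSD11B1 and SRD5A1 were called in females (27.1% of genes) and these and NR3C1 in males (34.5% of genes). NR3C1 rose by 1.18 ± 0.21 in males (adjusted p = 0.000494) and its value in females was 0.55 ± 0.21 (adjusted p = 0.0576). The difference between the sexes was 0.62 ± 0.29 (edgeR, unadjusted p = 0.0482, adjusted p = 0.25). Without male GD45 replicate 17, NR3C1 was called in females as well (adjusted p = 0.00848, edgeR), as was NR3C2 in males (adjusted p = 0.00655), and the difference between the sexes remained above the threshold (adjusted p = 0.0656). Over all genes the interaction of sex and day called 0% in both periods by edgeR's quasi-likelihood test, with 333 and 3232 genes at an unadjusted p under 0.05.

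None of the 8 members tested was called between males and females on any day in edgeR's test, and PGR was too low to be tested. Of all genes, 0.0919%, 0.098% and 0.098% were called at GD45, GD60 and GD90. In single values, the 3 males and 3 females did not overlap for 2 of 9 members at GD45 (HSD11B1 and HSD11B2), 1 at GD60 (ESR1) and 3 at GD90 (NR3C1, NR3C2 and CYP19A1), against 5.79%, 11.2% and 36% of all genes. At GD90, NR3C1 was 26.1, 30.4 and 30.7 CPM in males and 19.5, 21.8 and 23.7 in females, a log2 difference of 0.36 ± 0.21 (adjusted p = 0.394). On that day males 1, 8 and 10 had 0, 0 and 1 male neighbours, and females 2, 7 and 9 had 2, 1 and 2. Sex and the sex of the neighbours can therefore hardly be told apart at GD90. CYP19A1 at GD90 was 11.4, 12.4 and 12.6 CPM in males and 14.6, 14.7 and 16.6 in females (-0.39 ± 0.20, adjusted p = 0.379). HSD11B2 at GD45 was 1.12, 1.24 and 1.48 CPM in males and 1.82, 2.53 and 2.9 in females (-0.82 ± 0.53, adjusted p = 0.995), and HSD11B1 was 6.99, 9.46 and 10.3 in males and 11.0, 12.1 and 15.3 in females (-0.44 ± 0.20, adjusted p = 0.995). NR3C2 at GD90 was 15.3, 16.1 and 16.3 CPM in males and 10.9, 14 and 14.2 in females (0.23 ± 0.35, adjusted p = 0.739). ESR1 at GD60 was 0.949, 1.14 and 1.51 CPM in males and 0.693, 0.727 and 0.862 in females (0.69 ± 0.36, adjusted p = 0.779).

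The sex of the neighbours was considered next, because steroids of a male fetus can reach those beside it. Of the 9 males, 4 had no male neighbour, 4 had 1 and 1 had 2, while of the 9 females 5 had 1 and 4 had 2, so that no female lay between 2 females. A fit with the 6 groups of sex and day and the number of male neighbours called no member and 0% of all genes in edgeR (1434 genes at an unadjusted p under 0.05, 2 genes called by DESeq2). NR3C1 had a log2 change of 0.25 ± 0.10 per male neighbour (edgeR, adjusted p = 0.546). Male GD45 replicate 17, which lay between 2 females, weighed on it: without that brain the change was 0.12 ± 0.10 (adjusted p = 0.812). For the other 7 members tested the change per male neighbour lay between -0.29 (ESR2) and 0.11 (CYP19A1).

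Among other steroid receptors and binding proteins, PGRMC2, a membrane progesterone receptor component, rose from a median of 25.6 CPM at GD45 to 32.6 at GD90, a log2 fold change by litter of 0.44 ± 0.10 (edgeR, adjusted p = 0.00348). ESRRB, an orphan relative of the estrogen receptors, fell by 1.87 ± 0.29 on the log2 scale (edgeR, adjusted p = 0.000298), from a median of 5.28 CPM to 1.29. GPER1, a membrane estrogen receptor, was called from GD60 to GD90 (0.40 ± 0.11, adjusted p = 0.0172, edgeR).

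Of 13 chaperones and coregulators of the receptors, 1 was higher and 3 were lower at GD90 than at GD45, where 26.5% of all genes were called higher and 53.3% in either direction. NRIP1, a corepressor, rose by 1.21 ± 0.30. FKBP5, a cochaperone that lowers the affinity of the glucocorticoid receptor for its hormone, fell by 0.88 ± 0.15 on the log2 scale (edgeR, adjusted p = 0.000515), from a median of 23.7 CPM to 11.6. NCOR1, a corepressor, fell by 0.32 ± 0.10 and PTGES3, a cochaperone of HSP90, fell by 0.29 ± 0.10.

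Among 15 genes of steroid synthesis in the table, 12 were tested, and 4 were higher and 2 lower at GD90 than at GD45 (53.3% of all genes called in either direction). TSPO, a protein of the outer mitochondrial membrane, rose by 0.92 ± 0.18, HSD17B7 by 0.47 ± 0.11 and HSD3B7 by 0.42 ± 0.11, while STAR, which carries cholesterol into mitochondria, fell by 0.49 ± 0.16 and POR, the electron donor of microsomal P450 enzymes, fell by 0.31 ± 0.09. CYP11A1, which makes the first step from cholesterol, had a median of 0.32 CPM at GD45 and 0.388 at GD90, and CYP17A1, which makes androgen precursors, had 0.0967 and 0.157.

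Among 14 genes of steroid inactivation and conversion, 12 were tested, and 6 were higher and 1 lower at GD90 than at GD45 (26.5% of all genes called higher and 53.3% in either direction). CYP46A1, which hydroxylates cholesterol in neurons, rose from a median of 36.5 CPM at GD45 to 65.7 and 200 (2.41 ± 0.12, edgeR, adjusted p = 1.16e-07). CYP24A1, which breaks down vitamin D, rose by 3.48 ± 0.54 and SULT2A1, a sulfotransferase of hydroxysteroids, by 2.94 ± 0.84. H6PD, which supplies HSD11B1 with NADPH, fell by 0.41 ± 0.11 on the log2 scale (adjusted p = 0.00856, edgeR).

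Of 11 glucocorticoid-responsive genes in the table, 3 were higher and 2 lower at GD90 than at GD45, where 53.3% of all genes were called. KLF9, a transcription factor, rose from a median of 2.26 CPM to 7.54 and 42.7 (4.21 ± 0.27, edgeR, adjusted p = 5.01e-07), ZBTB16 by 1.81 ± 0.45 and TSC22D3 by 0.45 ± 0.08. CEBPD fell by 1.09 ± 0.17 on the log2 scale and FKBP5, also in this list, by the amount given above. The median of the list was 0.08.

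Cell type markers moved over the same days. Summed over each list, astrocyte markers (5 genes) ran from 103 to 244 CPM at GD45 and from 1460 to 1950 at GD90, oligodendrocyte markers (5 genes) from 18.9 to 42.9 and from 1730 to 2980, microglia markers (7 genes) from 90.8 to 133 and from 171 to 264, and neuron markers (6 genes) from 6320 to 7600 and from 7870 to 9080. Markers of neural progenitors (4 genes) went from between 1000 and 1120 CPM to between 391 and 514, and those of erythroid cells (5 genes) from between 266 and 669 to between 95.1 and 173. Choroid plexus markers (6 genes) went from between 941 and 1530 CPM to between 417 and 929, and hypothalamus markers (6 genes) from between 42.2 and 48.8 to between 18.9 and 31.7. The hypothalamus list was split by litter from GD45 to GD90, with 4 genes called lower and 2 higher (OXT, 1.71, and AVP, 0.66). Over this span 26.5% of all genes tested were called higher and 53.3% in either direction. These shares also stand beside the calls of the neuron and meninges lists given here. In the neuron list 5 genes were called higher and 0 lower, while the median of TUBB3 went from 3960 to 3320 CPM. Endothelium markers (5 genes) lay between 334 and 438 CPM at GD45 and between 364 and 500 at GD90, and meninges markers (6 genes) between 499 and 1110 and between 913 and 1200, although 4 of these 6 were called lower by litter and 1 higher (COL1A1, 0.55), with a median log2 fold change of -0.41. Pituitary markers (7 genes) reached 31.7 CPM at GD45 and 62.7 at GD60 in single brains and 1.1 at GD90, and hindbrain and spinal cord markers (6 genes) reached 78.5, 3.21 and 0.83. Male GD45 replicate 17 had the lowest sum of the GD45 brains for astrocytes, oligodendrocytes, neural progenitors and meninges, and the highest for erythroid cells (669 CPM), endothelium and choroid plexus. The part of these cell types in the levels of the 9 genes was not tested.

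Genes most alike to each member were sought by Pearson's r of log2 CPM over the 18 libraries, which share day, litter and depth, and r is given as a description. For NR3C1 they were EPS15 (0.966) and ADD3 (0.965), and for NR3C2 TMEM181 (0.971) and ACSL1 (0.968). HSD11B1 was most like CYP26A1, a retinoic acid hydroxylase gene (0.967), and TTC7B (0.959), CYP19A1 like CHPT1 (0.954) and SMIM17 (0.954), and SRD5A1 like FGF13 (0.966) and VAMP2 (0.958). HSD11B2 was most like ZIC5 (0.821) and SKOR1 (0.805), ESR2 like TTLL4 (0.868) and NOA1 (0.842), and ESR1, at its low counts, like NUDT7 (0.741) and C8orf58 (0.71).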

How the data were processed

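Total RNA of 18 whole fetal brains was enriched for mRNA and sequenced as read pairs of 150 bases. Per the methods, the authors used Trimmomatic for trimming, HISAT2 for alignment to Sscrofa11.1 and featureCounts for counting over Ensembl genes. They deposited raw counts per gene, exon and transcript. Options for strand, multiple matches and shared reads are not given in the sources used here. The tables hold 22 columns, since 4 libraries have 2 runs, which were summed, and 0 columns of other samples. Totals were 15118843 to 19729783 counts per library for genes. A count of 0 allows up to 3 counts, and such limits cover counting error only.

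Counts were tested with edgeR 4.0.16 (R 4.3.3): filterByExpr (16325 genes, 99.9% of counts), TMM, 1 model of 6 groups of sex and day, quasi-likelihood test, Benjamini-Hochberg adjustment and a threshold of 0.05 on the adjusted p. For days, counts of the 2 fetuses of a litter were summed (9 litters, 17003 genes), since litter mates are not independent. The replicates of a group are separate fetuses. The log2 CPM used a prior count of 2. CPM and FPKM were computed here from the deposited counts and gene lengths.

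Alternatives were DESeq2 1.42.0, edgeR's likelihood ratio test, no TMM, no filter, more than 1 CPM in at least 3 libraries, the 6 libraries compared alone, 1 sex alone, the litter as a block (limma 3.58.1 and statmod 1.5.0 for days), each library or litter left out, the first run alone, and the exon and transcript tables. Files were loaded by data.table (version 1.17.8), and the fits were tested on simulated data. Members, lists and tests were chosen with earlier results of these data known. The rule named all 9 members, at most 3 called genes in each direction per list and comparison with the largest folds, and for each tested member the 2 genes of at least 1 CPM most like it. Other names, such as CYP11A1 and CYP17A1, were chosen after their values were seen. Lists held 14 genes that were not found in the table by symbol, among them HSD3B1, SRD5A3, STS and SOX2. Sequences were read from the RefSeq copy of Sscrofa11.1, whose coordinates match those of the deposited tables. A gene of the list of other steroid receptors is not reported here, so no count is given for that list.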

Additional observations from a re-analysis of the deposited data

Results flagged for a closer look

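Of 26 groups of 6 brains (a member on a day), 4 held a brain whose gap to the nearest other exceeded the critical share of the range by Dixon's criterion, where chance gives about 1 in 20 groups. Male GD45 replicate 17 was flagged for NR3C1 (6.06 CPM, nearest brain 12.3) and for SRD5A1 (82.3 CPM, nearest brain 137). Male GD90 replicate 10 was flagged for ESR1 (1.46 CPM, nearest brain 1.09), which is 22 reads. Male GD60 replicate 16 was flagged for ESR2 (1.45 CPM, nearest brain 1.07), which is 24 reads.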

How the results depend on the processing

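From GD45 to GD90 by litter, NR3C1, NR3C2, CYP19A1, SRD5A1 and HSD11B1 kept their direction and call in all 13 alternatives that were tested. Their adjusted p was at most 0.0132 across these edgeR and DESeq2 tests. The first run alone and the exon and transcript tables gave ratios of mean CPM only, without a test. PGR, which had no read at GD45, entered the litter test through the days on which it was present. Its call is counted in the numbers that follow. DESeq2 did not call PGR from GD45 to GD60 by litter. Leaving out 1 litter in turn gave 1 to 3 members called from GD45 to GD60 (3 with all litters), 3 to 5 from GD60 to GD90 (5) and 6 to 7 over both periods (6). The 1 was PGR alone, so that no other member was called without the GD45 litter of 8 or the GD60 litter of 8 or 13. Over all genes these fits called 1049 to 2133, 4725 to 6148 and 7483 to 8540 (1974, 6353 and 9071 with all litters). Females alone gave 0 and males alone 1 in the first period, and males alone 2 in the second. Within the sexes, DESeq2, edgeR's likelihood ratio test, no filter and voom with litter as a replicate block each called 1 member from GD45 to GD60 in females (0 in the analysis reported), which was CYP19A1 or, without the filter, PGR. Only the 6 libraries compared gave 0 in males (1 reported). Leaving out 1 library gave 0 to 2 in females and 0 to 1 in males from GD45 to GD60, and 2 to 4 in females and 1 to 5 in males from GD60 to GD90, where the whole table gave 531 to 2329, 476 to 1550, 3175 to 5967 and 3828 to 7368 genes. The lowest of these, 1, came without male GD60 replicate 6 or male GD90 replicate 8. With the litter as a replicate block, sex called 9, 9 and 10 genes at the 3 days (15, 16 and 16 reported) and no member. Signs turned where values were small: ESR1 was 0.15 and -0.04 in males alone for the successive periods and -0.0034 in females alone over both, and ranged from -0.35 to 0.04 and from -0.11 to 0.24 with 1 litter left out, from GD45 to GD60 and to GD90. ESR2 ranged from -0.0043 to 0.30 from GD45 to GD60 with 1 litter left out, and HSD11B2 was 0.42 in males alone from GD60 to GD90. In the log2 ratio of mean CPM of GD90 over GD45, the exon table gave NR3C1 1.63 (1.00 in the gene table), from 5.93% of its reads, and the transcript table gave HSD11B1 0.28 (1.33), and the cause was not tested. Genes called over the whole table moved most for the interaction from GD60 to GD90 (0 reported, 277 by DESeq2, 2209 without male GD45 replicate 17), for males against females at GD90 with only the 6 libraries compared (1062 against 16), and for GD60 against GD45 in males with only the 6 libraries compared (0 against 916). The highest of the 4 whole-table ranges within the sexes above came without male GD45 replicate 17 in each case.

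Depth limits ESR1, ESR2, PGR and HSD11B2, with 51 reads or fewer per library. SRD5A1 overlaps NSUN2, HSD11B1 overlaps C1orf74, CYP19A1 overlaps GLDN and a gene without a name, and ESR1 and NR3C2 each overlap a gene without a name, so reads on shared bases cannot be told apart without strand. With 3 litters a day, 1 litter decides several calls of the single periods.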
